A study of Trichoplusia ni and Spodoptera exigua with 20 samples.

Results

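A group of 300 genes of the cabbage looper, *T*. *ni*, is described here, out of 14384 genes in the count table of this species. Their RNA was lower in every treated fat body library than in every control library, but 2 of the 4 pools of larvae that consumed SFN kept part of it. The genes were chosen by this pattern. The values used were the normalized counts of the authors, taken as x = log2(normalized count + 1). A gene qualified when its control mean was at least 50 normalized counts, its lowest control x lay at least 1 above SFN replicates 1 and 2, and both of these lay at least 1 above SFN replicates 3 and 4 and all TSA libraries. The 100 genes with the highest control mean were left out, and 349 genes then qualified. Of these, the 300 with the largest difference between the mean control x and the mean TSA x were kept. Every library of the species was therefore used to choose the genes, and the differences between treatments given below describe the choice and test nothing.

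Larvae of wild type *T*. *ni* were reared singly on artificial diet with antibiotics, and fat bodies were dissected at about Day 10. The tested larvae fed on diet coated with SFN (70 mM, 4 libraries) or TSA (330 µM, 4 libraries), both dissolved in ethanol that was then evaporated. Control larvae received only the EtOH carrier (3 libraries). Each library pooled the fat bodies of 3 to 5 larvae, so that differences between individual larvae of a pool were not measured. The sample titles carry the code 22044R-02 for SFN replicate 4, TSA replicate 4 and control replicate 3, and the code 22044R-01 for the other 8 libraries of the species. What the codes stand for is not given in the sources used here.

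Sulforaphane (SFN) is an isothiocyanate released by cruciferous plants when their tissue is damaged, and trichostatin A (TSA) is a microbial hydroxamic acid. Both inhibit histone deacetylases, the enzymes that remove acetyl groups from histones and thereby tighten the packing of DNA. The study reports that SFN inhibited such enzymes extracted from *T*. *ni*, but that their activity was not reduced in larvae that consumed it. Its discussion adds that activity in fat bodies of this species stayed high after SFN and/or TSA. The fat body is the main organ of storage and intermediary metabolism in insects, and it secretes most proteins of the larval hemolymph. The tables name *T*. *ni* genes by identifiers that the files do not pair with gene names. Of the 14384 identifiers, 0 matched an entry of the RefSeq gene table for the tn1 assembly. What the 300 genes encode is therefore not given, and the fat body label was not checked against marker genes.

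Total counts on genes ranged from 17184377 to 23518486 in the SFN libraries, from 17625967 to 21176033 in the TSA libraries and from 18681299 to 20462975 in the controls. Control replicate 3 stood apart from the other controls in the 300 genes, and its values are given separately below. Replicates are separate pools of larvae by the sample labels, and whether the pools came from separate rearings is not given in the sources used here.

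In the SFN libraries, the median of the 300 genes was 7.28 normalized counts in replicate 1 and 10.9 in replicate 2, but 0.0909 in replicate 3 and 0.743 in replicate 4. In the TSA libraries, the medians were 0.0625, 0.0585, 0.0748 and 0.738 in replicates 1 to 4. In the controls, they were 73.6, 74.2 and 169 in replicates 1 to 3. The 4 SFN pools thus fell on both sides of a wide gap, while the 4 TSA pools were all low. In these bulk samples, fewer cells of a type and less RNA per cell cannot be told apart.

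**Figure D1:**
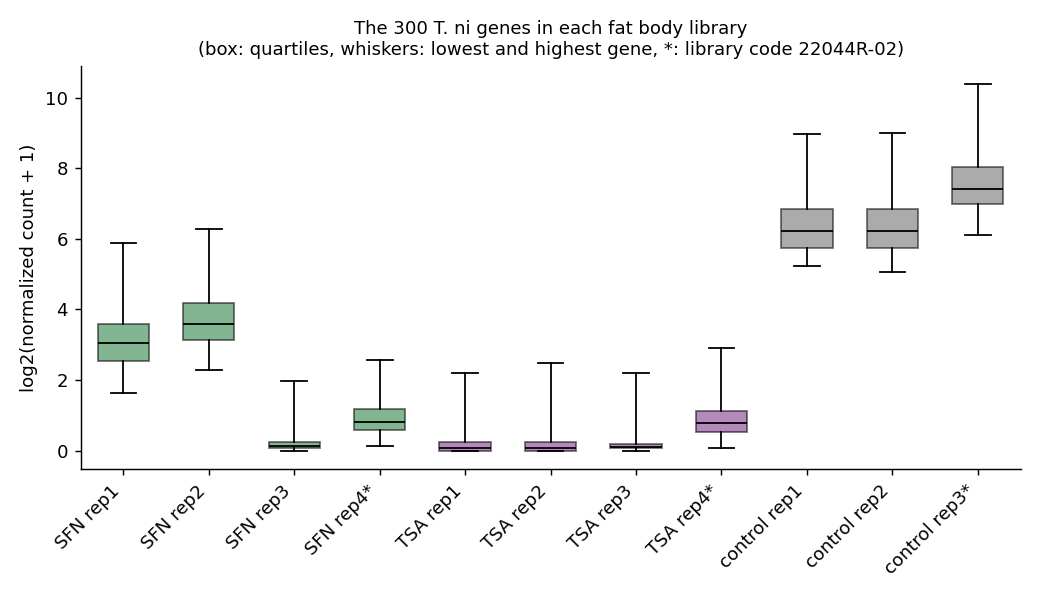
Log2(normalized count + 1) of the 300 genes in the 11 *T*. *ni* libraries, with boxes at the quartiles, lines at the medians and whiskers at the lowest and highest gene. SFN replicates 1 and 2 lie between the controls and the 6 other treated libraries, and SFN replicate 4 and TSA replicate 4 lie above the other low libraries.

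As a difference in x from the control mean, the median over the 300 genes was -3.65 in SFN replicate 1 and -3.05 in SFN replicate 2. It was -6.41 in SFN replicate 3 and -5.83 in SFN replicate 4. Under TSA it was -6.44, -6.45, -6.44 and -5.85 in replicates 1 to 4. For comparison, the median over the other 1383 genes with a control mean of at least 50 and outside the 100 highest lay between 0.15 and 0.36 in the 8 treated libraries.

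Expressed as a share of all raw counts, the 300 genes took 0.203% of SFN replicate 1 (95% Wilson interval 0.201% to 0.205%) and 0.373% of SFN replicate 2 (0.370% to 0.375%). They took 0.00656% of SFN replicate 3 (0.00619% to 0.00696%) and 0.0281% of SFN replicate 4 (0.0274% to 0.0287%). In the TSA libraries, the share was 0.00412% (0.00383% to 0.00442%) in replicate 1, 0.00425% (0.00396% to 0.00457%) in replicate 2 and 0.00464% (0.00436% to 0.00494%) in replicate 3, against 0.0264% (0.0257% to 0.0272%) in replicate 4. In the controls, it was 2.51% (2.51% to 2.52%), 4.19% (4.18% to 4.20%) and 13.5% (13.5% to 13.5%) in replicates 1 to 3. These intervals cover counting error only. The group averages were 0.153% ± 0.171 (SD, n = 4) under SFN, 0.00985% ± 0.0110 (SD, n = 4) under TSA and 6.74% ± 5.92 (SD, n = 3) in controls, so that the spread within each group was close to or above its mean. The 300 genes were a substantial part of the transcriptome in control replicate 3 and a minute one in 6 of the 8 treated libraries.

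**Figure D2:**
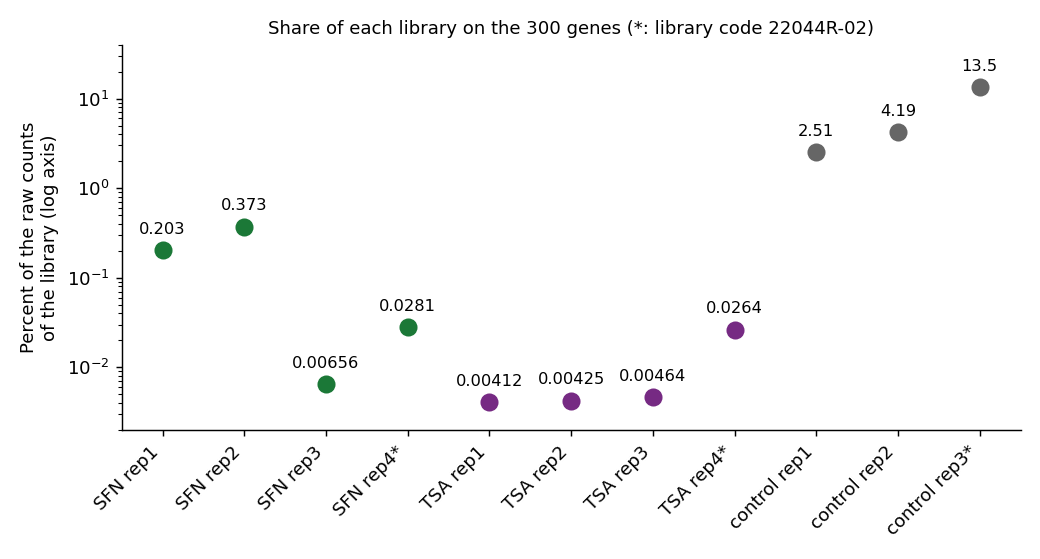
Percent of the raw counts of each library that fell on the 300 genes, on a log axis. The shares are 0.203% and 0.373% in SFN replicates 1 and 2, at most 0.0281% in the 6 other treated libraries, and 2.51% to 13.5% in the controls.

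Tni30G01340 had the highest control mean of the 300 genes. It had 47.6, 70.5, 0.273 and 4.88 normalized counts in SFN replicates 1 to 4 (582, 1230, 6 and 105 raw counts). It had 0.313, 0.702, 0.698 and 3.51 in TSA replicates 1 to 4 (5, 12, 14 and 57 raw counts), against 482, 480 and 1337 in control replicates 1 to 3. SFN replicates 1 and 2 kept 6.21% and 9.20% of the control mean, and the 2 replicates numbered 4 kept 0.637% (SFN) and 0.458% (TSA). On average, it had 30.8 ± 34.0 normalized counts under SFN (SD, n = 4), 1.30 ± 1.48 under TSA (SD, n = 4) and 766 ± 494 in controls (SD, n = 3).

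Tni19G03950 had the profile nearest to the median of the 300 genes. It had 7.69, 11.2, 0.136 and 0.743 normalized counts in SFN replicates 1 to 4 (94, 195, 3 and 16 raw counts), and 0, 0.0585, 0 and 0.677 in TSA replicates 1 to 4 (0, 1, 0 and 11 raw counts). The controls had 69.3, 76.6 and 176. Its levels in SFN replicates 1 and 2, at 7.17% and 10.4% of the control mean, were close to those of Tni30G01340 although its control mean of 107 ± 59.5 (SD, n = 3) was much lower. The SFN and TSA libraries overlapped in both genes, since SFN replicate 3 was below TSA replicate 4. In Tni30G01340 it was below every TSA library by normalized counts. That order rested on few reads, with 6 raw counts in SFN replicate 3 and 5 in TSA replicate 1. No treated library reached a control in either gene.

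**Figure D3:**
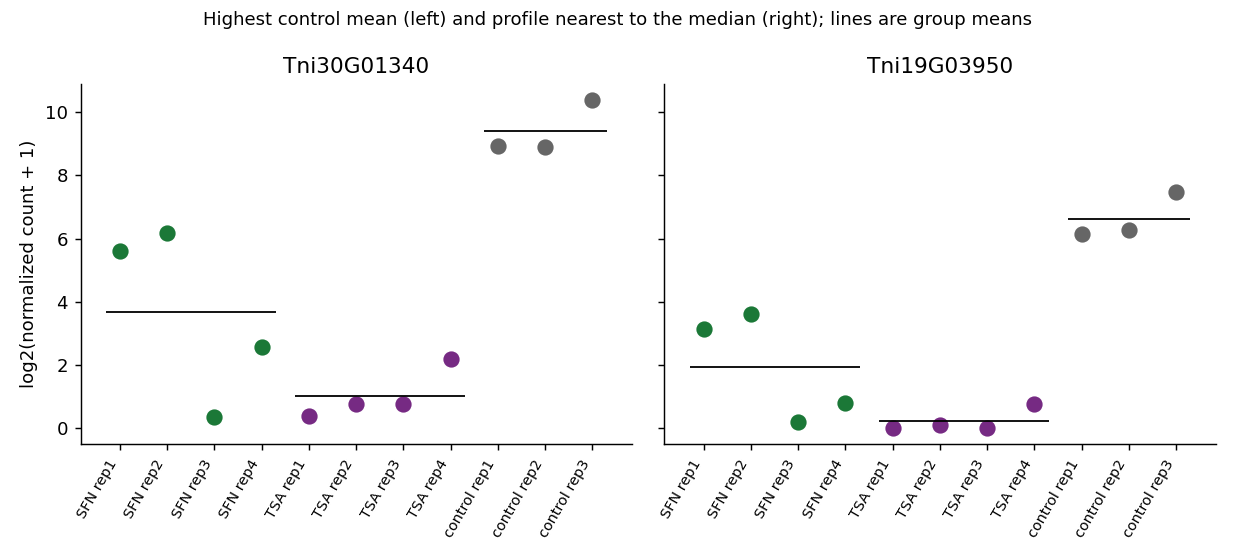
Log2(normalized count + 1) of Tni30G01340 (left) and Tni19G03950 (right) in the 11 libraries, with a line at the mean of each treatment. In both genes SFN replicates 1 and 2 lie near 6.21% to 10.4% of the control mean, and SFN replicate 3 lies with the TSA libraries.

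SFN replicates 1 and 2 kept a similar part of the control level from gene to gene. In SFN replicate 1 the 300 genes had a median of 6.48% of their control mean, and the central 90% of them lay between 3.95% and 9.73%. In SFN replicate 2 the median was 10.3%, with the central 90% between 7.95% and 13.2%. The standard deviation of the log2 share across genes was 0.36 and 0.23 in these libraries, of which counting error alone gives 0.15 and 0.10 at a typical gene. The rule limited these shares from above, through the lowest control, and from below, through the 6 other treated libraries, which by itself narrows their spread, so that it was not set against that of other genes. The margin below the lowest control was at least 2.06 (median 2.62), and the margin above the 6 other treated libraries was at least 1.04 (median 2.13, under 1.5 in 23 genes), where 1 was asked for in both. The size of the part kept depended on the scaling. Summed over the 300 genes, SFN replicates 1 and 2 had 6.72% and 10.4% of the control mean by the values of the authors, 4.92% and 7.15% with DESeq2 size factors, and 3.02% and 5.53% with library size only.

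SFN replicate 2 was above SFN replicate 1 in 295 of the 300 genes. The sum over the genes was 1.55 times as high in SFN replicate 2 by the normalized counts of the authors and 1.83 times as high by share of raw counts. Among the other genes SFN replicate 2 was higher in 679 of 1383. The order was not particular to the 300 genes. It held in 46 of the 49 genes left out by the limit of 300. It also held in 221 of 244 genes that met every condition except the control minimum. Of 22 genes far below control under TSA that did not stand clear of it in SFN replicates 1 and 2, 20 showed it. Across the 300 genes, x in SFN replicate 1 and in SFN replicate 2 were correlated with r = 0.948 (Pearson) and rho = 0.923 (Spearman). With control replicate 1, these values were 0.947 and 0.921 for SFN replicate 1 and 0.975 and 0.960 for SFN replicate 2. The genes share their libraries and are not independent, and the coefficients only say that genes that were abundant in controls were also the more abundant ones in the SFN pools that kept them.

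**Figure D4:**
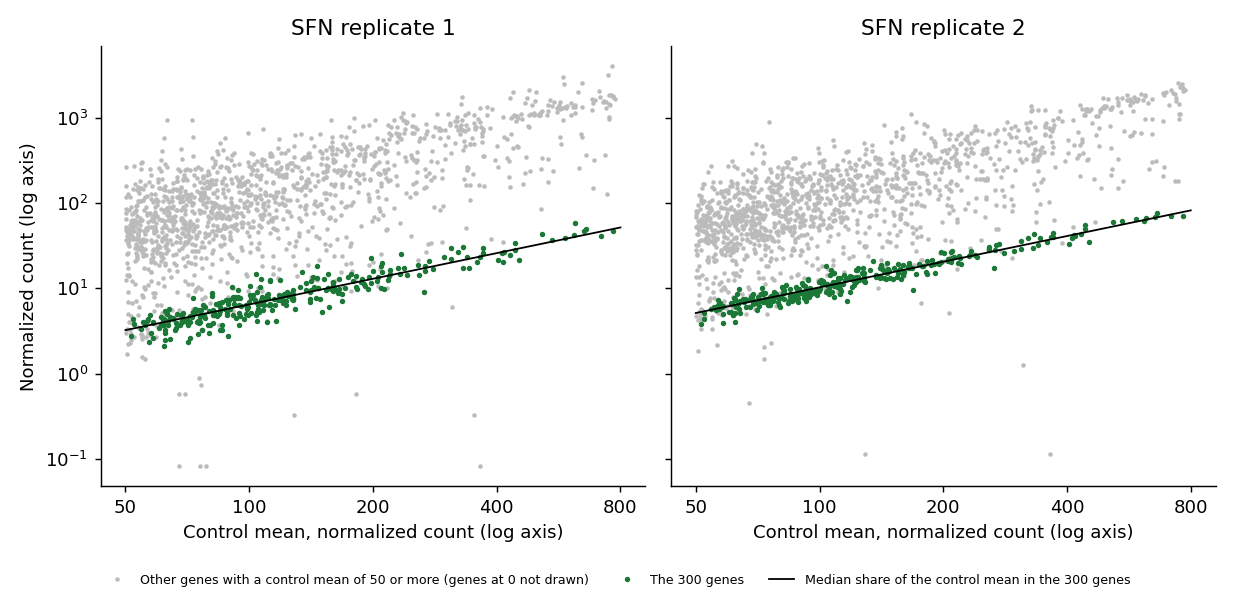
Normalized count in SFN replicate 1 (left) and SFN replicate 2 (right) against the control mean, both on log axes, for the 300 genes (green) and the 1383 other genes (grey, genes at 0 not drawn). The black line marks the median share of the control mean in the 300 genes, 6.48% on the left and 10.3% on the right, and the green points follow it over the whole range of control levels.

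The share kept depended little on the control level. In the lowest quartile of control means (51.6 to 76.9 normalized counts, 75 genes), the summed level was 6.25% of control in SFN replicate 1 and 10.3% in SFN replicate 2. In the highest quartile (160.8 to 766), it was 6.76% and 10.5%. In SFN replicate 3 the sums were 0.0751% and 0.0974% of control in these quartiles, and in TSA replicate 1 they were 0.0807% and 0.110%. By contrast, the median difference in x in TSA replicate 1 was -5.87 in the lowest quartile and -7.54 in the highest. Near 0 counts, this difference follows the control level through the added 1, and it understates the fall of the less abundant genes.

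Counts were sparse in the 6 treated libraries other than SFN replicates 1 and 2, called the low libraries here. In SFN replicate 3, 65 of the 300 genes had no read and 217 had 3 reads or fewer, with 1128 reads in all. In TSA replicates 1, 2 and 3, the genes without a read were 86, 101 and 71, and the summed reads were 760, 752 and 982. Only 8 genes exceeded 1 normalized count in any of TSA replicates 1 to 3, and none of the 300 exceeded 5. Whether these genes were silent could not be shown at this depth, as 170 of them had 3 reads or fewer in each of SFN replicate 3 and TSA replicates 1 to 3.

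SFN replicate 4 and TSA replicate 4 held more. Summed over the 300 genes, they reached 0.694% and 0.649% of the control mean, whereas SFN replicate 3 reached 0.116% and TSA replicates 1, 2 and 3 reached 0.108%, 0.0997% and 0.111%. In 289 of the 300 genes, SFN replicate 4 lay above SFN replicate 3 and TSA replicate 4 lay above each other TSA library. Among the 1383 other genes, SFN replicate 4 lay above SFN replicate 3 in 64.1%. In these genes TSA replicate 4 lay above TSA replicates 1, 2 and 3 in 44.5%, 43.6% and 44.3%, each taken alone. SFN replicate 4 had 6597 reads on the 300 genes and TSA replicate 4 had 4653, and every gene had at least 1 read in both. Across the genes, x in SFN replicate 4 and TSA replicate 4 were correlated with r = 0.850 and rho = 0.767. With control replicate 3, the values were 0.876 and 0.821 for SFN replicate 4, and 0.828 and 0.767 for TSA replicate 4. They were similar with control replicate 1, which carries the other code, at 0.878 and 0.824 for SFN replicate 4. For TSA replicate 4 they were 0.838 and 0.786.

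Both libraries carry the code 22044R-02, as does control replicate 3, the library with the highest share on these genes. Set against the mean raw share in the controls of the same code, the shares were 0.208% in SFN replicate 4 and 0.196% in TSA replicate 4, close to the 0.196% in SFN replicate 3. They were 0.123%, 0.127% and 0.138% in TSA replicates 1, 2 and 3. On the same basis, SFN replicates 1 and 2 stood at 6.06% and 11.1%. The closeness depended on the scaling. By the normalized counts of the authors, the sum in SFN replicate 4 was 0.00435 times that of control replicate 3. In TSA replicate 4 it was 0.00407 times. Relative to control replicate 1, the sum was 0.00167 times in SFN replicate 3. It was 0.001545, 0.00143 and 0.00159 times in TSA replicates 1, 2 and 3. The part of the code in the higher level of the replicates numbered 4 was not tested, and only 1 control carries the second code.

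The controls differed in these genes. Control replicate 3 was the highest control in all 300 genes, where it was the highest in 37.4% of the 5445 genes tested for differential expression. Its sum over the 300 genes was 2.29 times that of control replicate 1 by the normalized counts of the authors. The size of this difference depended on the scaling, as it was 3.35 times with TMM factors computed on genes with a mean CPM over 10, and 5.37 times with library size only. Control replicates 1 and 2 had nearly equal normalized counts, with a ratio of sums of 1.02 (replicate 2 over replicate 1), but with library size only the ratio was 1.67.

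Gene by gene, control replicates 1 and 2 matched closely in the 300 genes. The difference in x had a median of 0.03 and a standard deviation of 0.11 across the genes, and it lay within 0.25 of 0 in 97.7% of them. In the other 1383 genes, the median was -0.20, the standard deviation 1.80 and the share within 0.25 of 0 was 24.8%. Control replicate 3 exceeded the mean of the other controls by a median of 1.20, with a standard deviation of 0.31 across the 300 genes, against a median of -0.26 and a standard deviation of 1.51 in the other genes. The rule required the lowest control to lie above SFN replicates 1 and 2, which removes genes with a low value in any control, whereas the other 1383 genes keep them. The narrower spread of the 300 genes is therefore partly fixed by the choice. It was also not particular to them. Control replicate 3 exceeded the mean of the other controls by a median of 1.24 (SD 0.31) in the 49 genes left out by the limit of 300, and by 1.20 (SD 0.35) in 244 genes that met every condition except the control minimum. In 22 genes that were far below control under TSA but did not stand clear of it in SFN replicates 1 and 2 it did so by 0.89 (SD 0.31). Control replicates 1 and 2 lay within 0.25 of each other in 87.8%, 88.9% and 77.3% of the genes of these 3 sets.

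**Figure D5:**
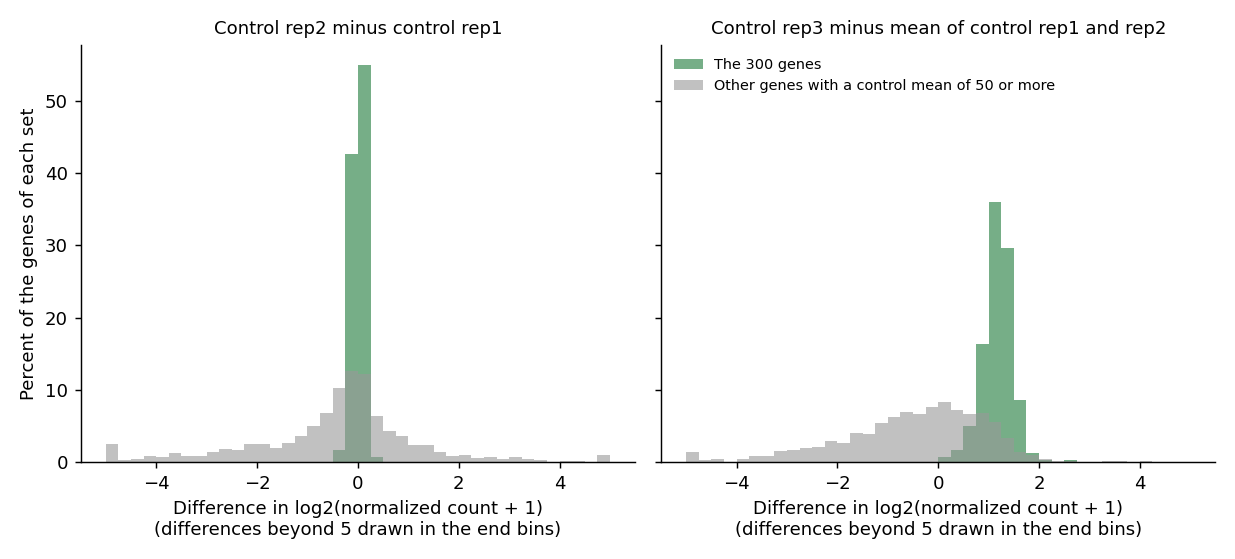
Distribution of the difference in log2(normalized count + 1) between control replicates 2 and 1 (left), and between control replicate 3 and the mean of both (right), as a percent of the genes in each set. The 300 genes (green) form narrow peaks at medians of 0.03 and 1.20, and the 1383 other genes (grey), which include genes with a low control that the rule removes, spread with standard deviations of 1.80 and 1.51.

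For differential expression, edgeR's quasi-likelihood test was fitted to all 5445 *T*. *ni* genes with a mean CPM over 10, with the replicate number as a block and Benjamini-Hochberg adjustment at 0.05. All 300 genes were among them. No control is numbered 4, so that SFN replicate 4 and TSA replicate 4 had no control in their block. Control replicate 3 shared its block with SFN replicate 3 and TSA replicate 3, which carry the other library code. Since the genes were chosen on these contrasts and passed the filter through the controls, the counts are only a description. Between SFN and control, 2 of the 300 genes were called lower, where 5.2% of all tested genes were. Between TSA and control, 297 were called lower, where 20% of all tested genes were. The median log2 fold change over the 300 genes was -5.52 under SFN (range -6.46 to -4.59) and -10.02 under TSA (range -12.11 to -6.41), while over all tested genes it was -0.16 and -0.05. Both contrasts share the same 3 control libraries. By the rule, every SFN and every TSA library was below every control in all 300 genes, which held for 20.8% (SFN) and 22.4% (TSA) of the tested genes.

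The SFN count depended on the model and on single libraries. Of the 300 genes, 295 had an unadjusted p under 0.05 for SFN in edgeR's test, as did 1929 of all 5445 tested genes. The adjusted p of the 300 genes ranged from 0.0446 to 0.152 in this test. Without the replicate block, 288 of the 300 genes were called lower under SFN by the same edgeR test (22.9% of all tested genes), and 285 by DESeq2's Wald test with the block (25.6% of all tested genes). With any 1 of the 11 libraries left out, edgeR's quasi-likelihood test called 0 of the 300 genes for SFN. Of the 300 genes, 199 to 300 then had an unadjusted p under 0.05, as did 1258 to 2007 of all tested genes. The share called among all genes was then 0%, except 1.34% without TSA replicate 3. For TSA, all 300 genes were called by DESeq2 (26.4% of all tested genes). The edgeR count for TSA was 0 without TSA replicate 1, 2 or 3, where 0% of all tested genes were called. In these settings, 295 to 299 of the 300 genes had an unadjusted p under 0.05, as did 1742 to 1876 of all tested genes. The TSA count was 9, 1 and 13 without control replicates 1, 2 and 3, where 4.08%, 2.08% and 1.98% of all tested genes were called. Without control replicate 3, 278 of the 300 genes were tested.

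In the comparison of SFN with TSA, 0 of the 300 genes were called by edgeR's quasi-likelihood test, and 0% of all tested genes. An unadjusted p under 0.05 was found for 67 of the 300 genes and for 263 genes in all. The number of genes called depended on the test. DESeq2's Wald test called 262 of the 300 genes higher under SFN (8.69% of all tested genes). By contrast, edgeR's likelihood ratio test called 0 higher (0% of all tested genes). With only the 8 libraries of code 22044R-01, edgeR's quasi-likelihood test called 51 of the 299 genes it tested (1.19% of all tested genes). The median log2 fold change (SFN minus TSA) was 4.51. Every TSA library was below every SFN library in only 5 of the 300 genes, where this held for 2.02% of tested genes.

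The pattern was the common one among genes that dropped deeply under TSA. Of the 1683 genes with a control mean of at least 50 outside the 100 highest, 400 had their lowest control x at least 2 above their highest TSA x. Of these 400 genes, 349 (87.3%) also met the conditions on the SFN libraries. All 300 genes described here were among the 400, which the margins of the rule fixed in advance. In 22 of the 400, SFN replicates 1 and 2 were within 1 of the highest TSA library or below it, and the last 29 lay between. The median of these 22 genes in TSA replicates 1 to 4 was 4.25, 5.15, 5.91 and 6.80 normalized counts, and in SFN replicates 1 and 2 it was 10.6 and 12.3. Their control medians were 53.0, 56.6 and 109.6. Summed over the 22 genes, SFN replicates 1 and 2 had 13.0% and 16.3% of the control mean, against 6.72% and 10.4% in the 300 genes, and TSA replicates 1 to 4 had 6.78%, 7.89%, 7.93% and 7.78%. They were thus higher than the 300 genes both under TSA and, relative to control, in SFN replicates 1 and 2. The conditions that split the 400 genes used these same values, so that this is a description.

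Genes just inside and just outside a limit could differ in the low libraries. The smallest margin of SFN replicates 1 and 2 over the low libraries among the 300 genes was 1.04, in a gene with 4.50 and 7.45 normalized counts in SFN replicates 1 and 2 and up to 1.67 in the low libraries. The nearest gene outside had a margin of 0.99, with 5.40 and 8.48 in SFN replicates 1 and 2 and up to 2.23 in the low libraries. On the margin between controls and SFN replicates 1 and 2 alone, 11 genes failed, and in all 11 the higher of these SFN libraries was at or above the lowest control. The last gene kept by the limit of 300 had a difference of 5.54 between the mean control x and the mean TSA x, as did the first of the 49 genes left out by it. The deepest difference was 8.51, in a gene with 46.5, 68.4, 0.318 and 4.13 normalized counts in SFN replicates 1 to 4, 0.375, 0.117, 0.150 and 3.69 in TSA replicates 1 to 4, and 487, 499 and 974 in the controls.

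The identifiers of the 300 genes were spread over all 32 blocks of identifiers, a block being the identifiers that share the digits before the letter G. What these digits stand for is not stated in the files. Per block, between 5% and 35.7% of the genes with a control mean of at least 50 outside the 100 highest belonged to the group (17.8% in all). The block Tni14G had 10 of 28, Tni01G had 28 of 80, and Tni16G had 3 of 60. A neighbouring identifier in the raw table was also in the group for 63 of the 300 genes (21%), whereas 46 of the 1383 other genes (3.33%) had a neighbour in the group. The 63 genes formed 28 runs of consecutive identifiers, of which 23 were pairs and the longest held 5 genes. Overlapping gene models can share reads, and whether such sharing adds to these runs was not tested.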

How the data were processed

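RNA-seq libraries were made from poly(A)-selected RNA of *T*. *ni* fat bodies. Per the labels and the methods of the study, the authors trimmed reads with Trimmomatic 0.39, aligned them to the Cornell-1 genome with HISAT2 2.2.1 and counted them per gene with featureCounts, and they deposited these raw counts. The authors also deposited a normalized signal, in which they scaled the counts of 10610 genes by trimmed mean of M-values. Multiplied by 1 factor per library, 100% of its values were whole (tolerance 0.05) and equal to the raw counts, so the count test on them called the same numbers. All columns were mapped from the sample titles. The *S*. *exigua* tables were not used here.

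The genes were chosen on the normalized table as the report states, with a pseudocount of 1. Raw counts were tested in R 4.3.3 with edgeR 4.0.16 (mean CPM over 10, TMM, treatment and replicate number, quasi-likelihood test). The study speaks of pairing triplicates, which was read as this block. The model was tried on simulated counts with a fixed spread and no block effect. This does not show how stable its calls are in the present libraries. DESeq2 1.42.0, other scalings, filters, blocks and left-out libraries were alternatives. The genes, and the sets compared with them, were chosen with earlier results of these data known. The 2 genes named are those with the highest control mean and with the profile nearest to the median. Figures used matplotlib 3.10.9.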

Additional observations from a re-analysis of the deposited data

Results flagged for a closer look

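TSA replicate 4 stood apart from the other 3 TSA libraries in the 300 genes by Dixon's test at 95%, which by chance marks about 1 in 20 groups of samples. It held 0.0264% of its raw counts on the genes, their median difference in x from the control mean was -5.85, and their sum was 0.649% of the control mean. The same held for the 2 genes named, with 3.51 normalized counts of Tni30G01340 and 0.677 of Tni19G03950. These 5 values come from the same library and are not independent. The TSA values also helped to choose the genes, so that the mark only describes them.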

How the results depend on the processing

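The number of qualifying genes, 349 before the limit, was 165 with a pseudocount of 5, 180 with a margin of 2, 566, 176 and 593 with a control minimum of 20, of 100 and none, and 257 to 392 with 1 library left out. Of the 300 genes, 298 also qualified with TMM factors computed here and 234 without control replicate 3. The median difference in x from the control mean became -4.31 and -4.15 in SFN replicates 3 and 4, and -4.33, -4.33, -4.32 and -4.16 in TSA replicates 1 to 4, with a pseudocount of 5. For TSA replicates 1 to 4 it was -7.30, -7.34, -7.31 and -6.39 with a pseudocount of 0.5, and -6.81, -6.81, -6.80 and -6.26 with library size only. With 1 library left out it ranged from -6.67 to -6.06, -6.67 to -6.09, -6.64 to -6.05 and -6.08 to -5.44 in these libraries. All of these median differences kept their sign, which the rule itself fixed for any pseudocount and any library left out. Without the 100 highest genes in the total, the share was 0.621%, 0.963%, 0.0112% and 0.0576% in SFN replicates 1 to 4, 0.0114%, 0.00933%, 0.0114% and 0.0543% in TSA replicates 1 to 4, and 7.63%, 9.16% and 20.7% in control replicates 1 to 3.

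The SFN calls shifted with the replicate block. The quasi-likelihood test of edgeR called 2 of the 300 genes with the block (5.2% of all genes) and 288 without it (22.9%). They shifted as widely with the choice of test while the block was kept, as given below. The library code as the block gave 137 (17.2% of all genes). Same-numbered libraries did not deviate together (r from -0.25 to 0.42 over 10 pairs, over 0.1 in 2), so the numbers are not shown to pair the samples. Of the other settings, the SFN count was 0 at an adjusted p under 0.01 (0% of all genes). Library size only gave 14 (7.03%), size factors of DESeq2 gave 1 (4.81%) and upper-quartile factors gave 6 (4.32%). Leaving out the filter gave 1 (2.09%). The likelihood ratio test called 280 (20.4%), and the Wald test of DESeq2 called 285 (25.6%). The SFN count was 0 with code 22044R-01 only (0%) and with any 1 library left out (0% to 1.34%). Where 0% of all genes were called, a count of 0 is not particular to the 300 genes. The TSA count was 0 at an adjusted p under 0.01 (0% of all genes) and 0 to 300 with 1 library left out (0% to 19.5%). The count between SFN and TSA was 262 by DESeq2's Wald test (8.69%) and 51 with code 22044R-01 only (1.19%). It was 0 with any 1 library left out (0% to 0.0372%). The cause of these shifts was not tested. Depth limits the low libraries, where most of the genes had few reads.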

Other observations

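A further 244 genes met every condition except the control minimum. Their summed level was 7.31% and 10.8% of control in SFN replicates 1 and 2, 0.187% and 0.795% in SFN replicates 3 and 4, and 0.219%, 0.172%, 0.214% and 0.738% in TSA replicates 1 to 4. Of the 100 genes with the highest control mean, 7 met the other conditions, and their sums were 6.48%, 9.81%, 0.0543% and 0.695% of control in SFN replicates 1 to 4, and 0.0505%, 0.0430%, 0.0511% and 0.630% in TSA replicates 1 to 4. The level kept in SFN replicates 1 and 2 was thus close to that of the 300 genes at control levels below and above theirs. It was higher in the 49 genes left out by the limit of 300, at 9.10% and 12.5% of control. Their sums were 1.42% and 2.09% in SFN replicates 3 and 4, and 1.66% to 2.55% in the TSA libraries. These genes were chosen by the same pattern, so that this is a description.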
